A study of Rattus norvegicus with 6 samples.

Results

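The genes examined encode the subunits of sodium, calcium and chloride channels, together with the Trp, Asic, Piezo, Ano, Clic and Lrrc8 families and the calcium store proteins of the Ryr, Itpr, Stim and Orai families. They were picked out by a rule on the gene symbol, drawn up with earlier results of these data known, and 94 of the 13355 genes tested qualified. RNA of primary oligodendrocyte progenitor cells (OPCs), glial precursors that divide and can become myelin-forming oligodendrocytes, was hybridised to Affymetrix rat arrays. The cells were isolated from neonatal rat pups of postnatal day 1 to 2 and kept for 2 days in DMEM with N2, B27, pen/strep, NT3 and PDGF. In 3 arrays the cells then received fibrinogen, the clotting protein of blood plasma, for 48 h in differentiation medium. In the other 3 arrays, the controls, the cells were unstimulated and carry the same 48 h in their titles, with no medium stated. If the control medium was another one, fibrinogen and the change of medium cannot be told apart in these data. No strain or genotype is labelled, and nothing says whether the 3 arrays of a group came from separate preparations, so the p-values measure the spread between these arrays, which may be technical. The series title asks whether fibrinogen activates BMP signaling in OPCs and inhibits remyelination.

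Voltage-gated sodium and calcium channels consist of a large pore subunit and smaller auxiliary subunits that set its trafficking and gating. Calcium also enters the cytoplasm from the endoplasmic reticulum through IP3 and ryanodine receptors, and the emptied store is sensed by STIM proteins, which open ORAI channels in the plasma membrane. OPCs are known to carry voltage-gated channels and AMPA-type glutamate receptors and to lose much of their voltage-gated conductance as they mature. Chloride passes through ClC proteins, calcium-activated anoctamins and the volume-regulated channels built from LRRC8 subunits.

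Of these genes 5 were called changed with fibrinogen, a share near that of all genes. Among those calls 1, that of Cacng4, held in all 13 alternatives tried. The values are log2 expression values normalized between arrays, and a gene was called changed at an adjusted p under 0.05 in limma. Of the 94 genes, 3 rose (Cacng4, Clic1 and Cacnb2), 2 fell (Stim1 and Ano4) and 89 did not pass. Those 5 are 5.32% of the genes, against 7.16% of all 13355 genes tested (4.16% higher and 3.00% lower), so the share called was near the background. The arrays of the 2 groups did not overlap for 28 of the 94 genes (17 higher and 11 lower with fibrinogen), or 29.8%, against 27.0% of all genes (15.0% higher and 12% lower). At an unadjusted p under 0.05 there were 24 of the 94 genes, or 25.5%, against 21.1% of all genes.

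Most of the changes were small, as they were over all genes. The log2 fold changes (fibrinogen over control) ran from -0.51 for Scn4a to 0.83 for Clic1, with a median of 0.02, against a median of 0.00 over all genes. For 74 of the 94 genes the 95% interval lay within a 1.5-fold change either way, and for 93 within a 2-fold change, the exception being Clic1. The same held for 79.9% and 97.5% of all genes. There were 51 positive and 43 negative changes (50.3% of all genes were positive), which became 44 and 50 when arrays were centred on their medians. That centring moves the split of all called genes from 555 higher and 401 lower to 434 higher and 516 lower.

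**Figure D1:**
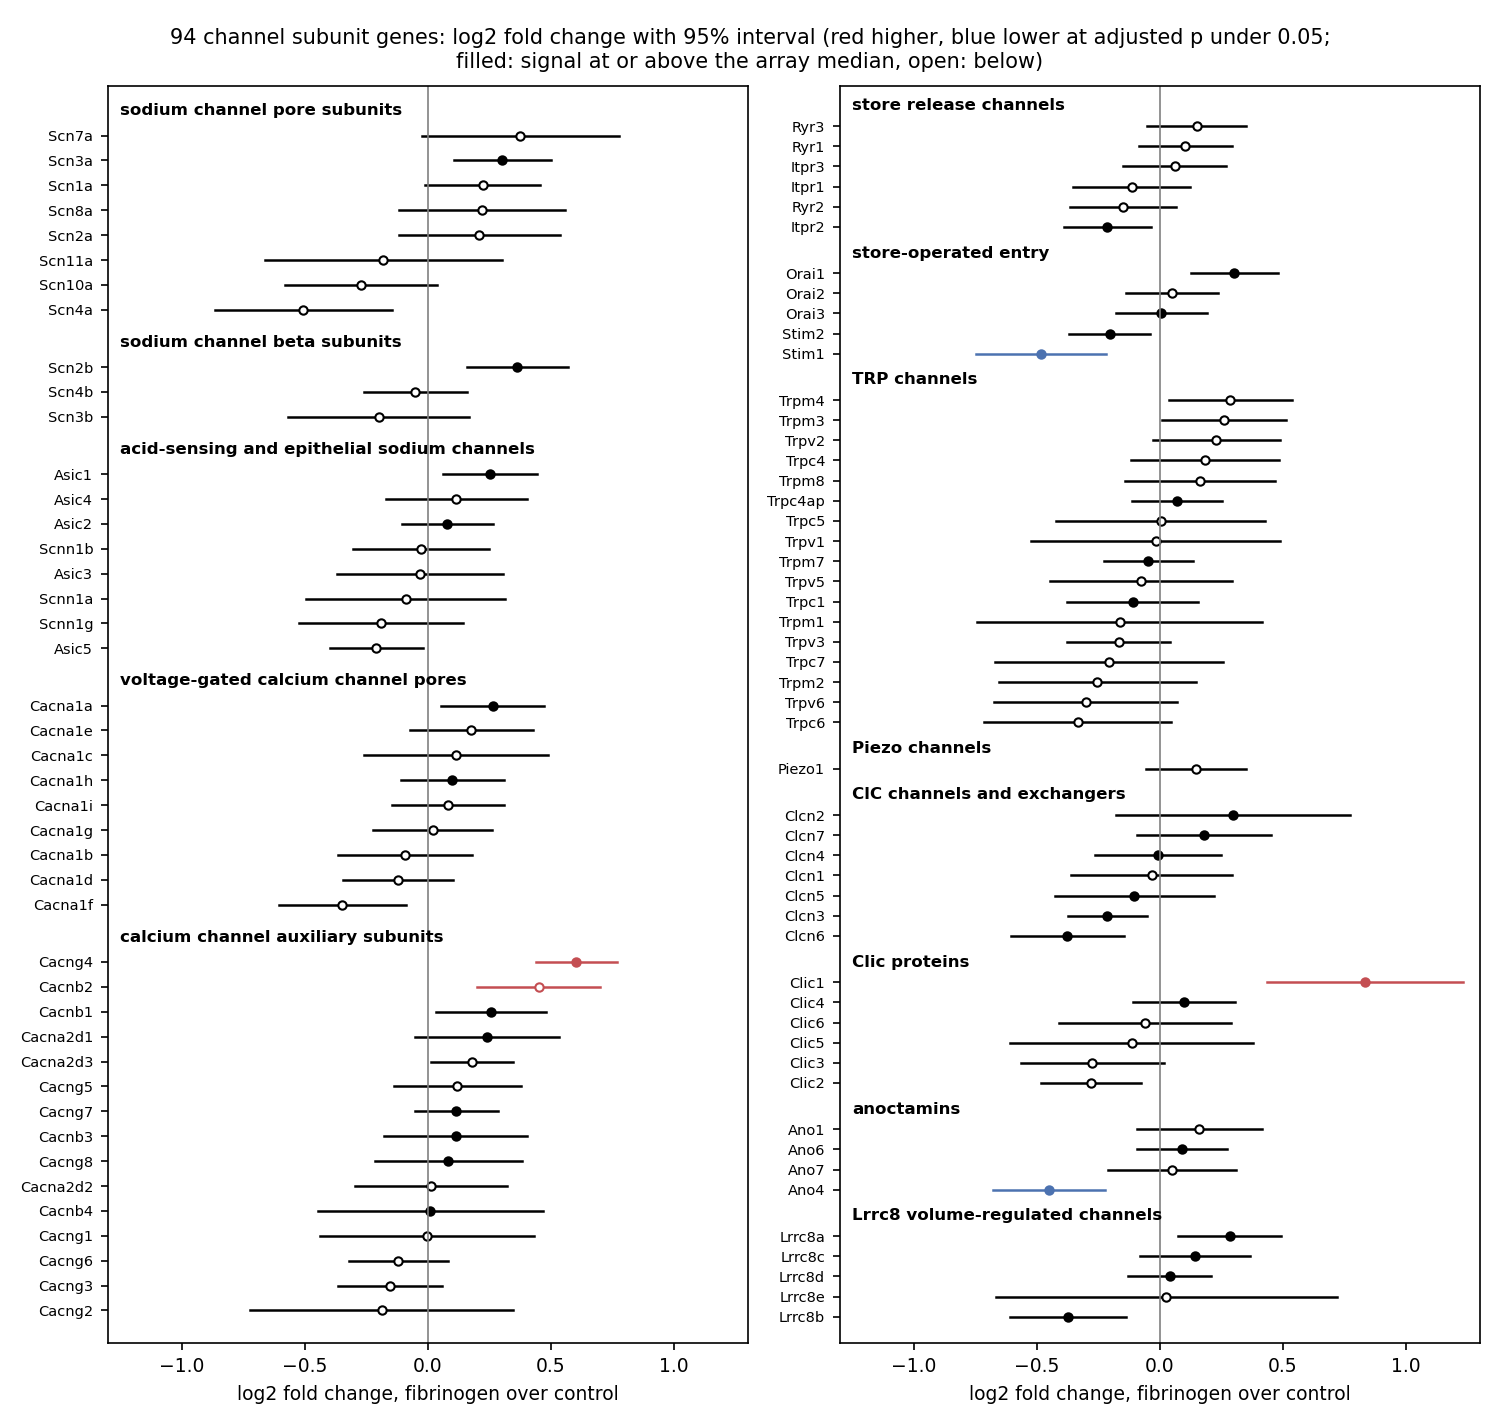
Log2 fold change (fibrinogen over control, x axis) with its 95% interval for each of the 94 genes, grouped by family. Red marks the 3 genes called higher and blue the 2 called lower, and filled points mark the 35 genes whose mean signal lay at or above the array median.

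The share of genes called differed between brighter and dimmer genes, and why it differed was not tested. The median over all valued probe sets was 5.82 on the log2 scale, and 59 of the 94 genes had a mean signal below it. Whether those genes lay above background is unknown, since the values come without detection calls. Of the 35 brighter genes 4 were called (11.4%, against 11.2% of all genes at or above that median). Of the 59 dimmer genes 1 was called (1.69%, against 1.99% of all genes below it). The groups did not overlap for 17 of the 35 brighter genes (48.6%, against 37.7% of all brighter genes) and for 11 of the 59 dimmer genes (18.6%, against 13.1%). A signal on these arrays cannot be set against that of another probe set, so no order of transcript levels among the genes is given.

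**Figure D2:**
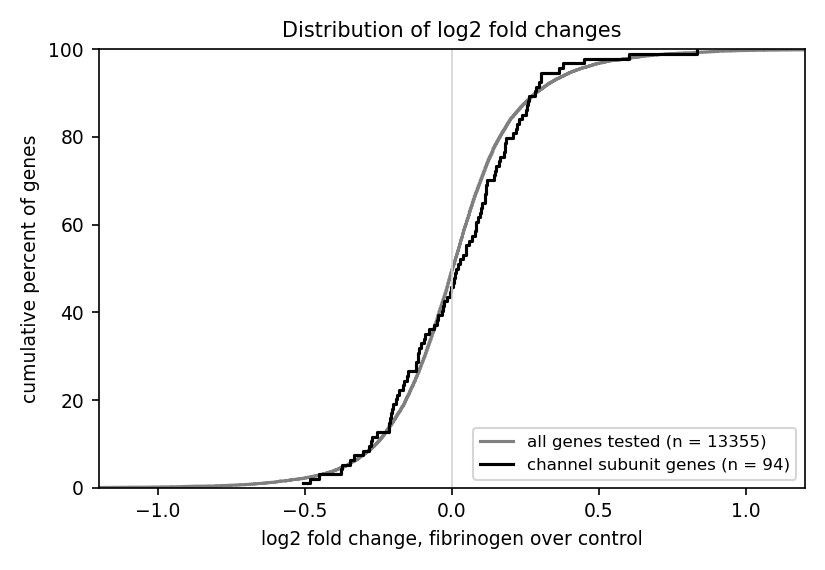
Cumulative percent of genes (y axis) by log2 fold change (fibrinogen over control, x axis; values beyond 1.2 either way are not drawn) for the 94 channel subunit genes in black and all 13355 genes tested in grey. The curves lie close together, with medians of 0.02 and 0.00.

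Of the 15 measured auxiliary subunits of calcium channels (Cacna2d, Cacnb and Cacng genes), 2 rose, none fell and 13 did not pass, where 4.16% of all genes were called higher. Of those 2 calls, that of Cacng4 passed in all 13 alternatives and that of Cacnb2 in 3 of 13. The family had 11 positive changes (9 with each array centred) and a median of 0.11. Cacng4 encodes a gamma subunit by name, and is known mainly as a TARP, a protein that escorts AMPA-type glutamate receptors to the membrane and slows their closing. Its log2 expression was 10.57, 10.48 and 10.55 in control arrays 1 to 3 and 11.17, 11.11 and 11.13 in fibrinogen arrays 1 to 3. The lowest fibrinogen array thus lay above the highest control array, and within each group the arrays were close to each other. The rise was 1.52-fold, from 10.53 ± 0.05 to 11.14 ± 0.03 (SD, n = 3), or 0.60 on the log2 scale (SE 0.07, 95% interval 0.44 to 0.77, adjusted p = 0.00477). Over the alternatives the adjusted p of Cacng4 ran from 5.78e-07 to 0.0359.

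Cacnb2, a cytoplasmic beta subunit that brings the calcium channel pore to the membrane, rose 1.37-fold from a dim signal. Its log2 expression was 4.51, 4.57 and 4.25 in control and 4.98, 4.80 and 4.90 in fibrinogen arrays, without overlap (log2 fold change 0.45, SE 0.11, adjusted p = 0.0496). The highest of these values is below the array median of 5.82. That call lay just inside the threshold. With 1 array omitted it was lost each time (adjusted p from 0.0613 without control 2 to 0.165 without fibrinogen 1), as it was with each array centred (adjusted p = 0.0715), with an intensity trend in the variance prior (adjusted p = 0.0617) and with the unmoderated model (adjusted p = 0.140).

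The other TARP genes did not pass. Cacng7, also above the array median, was at 9.81, 9.80 and 9.83 in control and 9.99, 9.94 and 9.86 in fibrinogen arrays, a log2 fold change of 0.12 (95% interval -0.05 to 0.29). Cacng8 was at 0.08 (95% interval -0.22 to 0.38), Cacng5 at 0.12, Cacng3 at -0.15 and Cacng2 at -0.19, the last 3 from signals below the array median. Cacng1, the gamma subunit of muscle, and its relative Cacng6 were at 0.00 and -0.12. Of the 8 Cacng genes Cacng4 was thus the one that passed, and differences between the genes were not tested.

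None of the remaining auxiliary subunits passed. Cacnb1 was at 6.60, 6.31 and 6.35 in control and 6.71, 6.66 and 6.66 in fibrinogen arrays, without overlap (log2 fold change 0.26, adjusted p = 0.178). Cacna2d1, an alpha-2-delta subunit and the target of gabapentin, was at 0.24 (95% interval -0.05 to 0.53, adjusted p = 0.335) with overlapping groups. Cacna2d3 was at 0.18 (adjusted p = 0.200), without overlap. Cacnb4 was at 0.01, with a control array at 6.35 far below the others at 7.19 and 6.88, and its sign turned in some alternatives. Cacnb3 and Cacna2d2 were at 0.11 and 0.01.

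None of the 9 measured pore subunits of voltage-gated calcium channels passed: 6 had positive and 3 negative changes, which were 5 and 4 with each array centred, and the median was 0.08. The signals of 7 of the 9 lay below the array median, all but those of Cacna1a and Cacna1h. Cacna1a, the P/Q-type pore of nerve terminals, was at 6.16, 6.22 and 6.18 in control and 6.33, 6.42 and 6.60 in fibrinogen arrays, without overlap (log2 fold change 0.26, 95% interval 0.05 to 0.47, adjusted p = 0.144). Cacna1f, the L-type pore of photoreceptors, was at -0.35 from signals below the array median (adjusted p = 0.119). The L-type pores of brain and heart, Cacna1c and Cacna1d, were at 0.11 and -0.12 (95% intervals -0.26 to 0.49 and -0.34 to 0.10). Cacna1c was lower in control array 1 (4.87) than in the other control arrays (5.46 and 5.34), and without that array its log2 fold change was -0.063. Cacna1e, the R-type pore, was at 0.18. The T-type pore Cacna1h, whose signal lay above the array median, was at 0.10 (95% interval -0.11 to 0.31), and Cacna1b, Cacna1g and Cacna1i were at -0.09, 0.02 and 0.08.

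Voltage-gated sodium channel genes moved both ways and none passed. Of the 8 pore genes 5 had positive and 3 negative changes (median 0.22, and 0.17 with each array centred), and 7 of the 8 lay below the array median. The positive changes were those of Scn1a at 0.22, Scn2a at 0.21, Scn3a at 0.30, Scn7a at 0.38 and Scn8a at 0.22. The negative changes were those of Scn4a, the pore of skeletal muscle, at -0.51 and of the sensory neuron pores Scn10a and Scn11a at -0.27 and -0.18, all 3 dim. The 95% intervals of all 8 genes but Scn3a and Scn4a held 0. Whether the signs go with the tissue was not tested. Scn3a, an embryonic form of brain, was at 5.62, 5.75 and 5.74 in control and 5.90, 6.07 and 6.05 in fibrinogen arrays, without overlap (SE 0.08, adjusted p = 0.0806). It passed with the mean of its probe sets (log2 fold change 0.39, adjusted p = 0.0205) and without the dimmest 25% of genes (adjusted p = 0.0439). Scn4a was at 4.57, 4.03 and 4.60 in control and 3.91, 3.88 and 3.89 in fibrinogen arrays (adjusted p = 0.106), and passed without control 2 (log2 fold change -0.69, adjusted p = 0.0140). Scn2a and Scn8a had 95% intervals of -0.12 to 0.54 and -0.12 to 0.56. Scn7a, a sodium sensor of glia rather than a voltage-gated pore, was at 0.38 with overlapping groups and a dim signal.

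Scn2b, a beta subunit with an immunoglobulin domain, came closest of the genes that missed the threshold. Its log2 expression was 5.63, 5.83 and 5.69 in control and 6.0, 6.07 and 6.17 in fibrinogen arrays, without overlap (log2 fold change 0.36, SE 0.09, adjusted p = 0.0532). It passed without the dimmest 25% of genes (adjusted p = 0.0285) and with array quality weights (adjusted p = 0.0410). The other beta subunits, Scn3b and Scn4b, were at -0.20 and -0.05.

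Acid-sensing (Asic) and epithelial (Scnn) sodium channels share a fold and are not voltage-gated. None of the 8 passed, with changes from -0.21 to 0.25 and all 8 intervals within a 1.5-fold change. Asic1, the main proton sensor of brain, was at 7.03, 7.14 and 7.15 in control and 7.36, 7.27 and 7.45 in fibrinogen arrays, without overlap (log2 fold change 0.25, 95% interval 0.06 to 0.45, adjusted p = 0.127). Asic5 was at -0.21 (adjusted p = 0.189), with every fibrinogen array below every control array and all signals dim. Scnn1g was at -0.19 (adjusted p = 0.516).

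Of the 5 measured genes of store-operated calcium entry 1 fell (Stim1), none rose and 4 did not pass. Over all genes 3.00% were called lower. Stim1, the sensor of the endoplasmic reticulum that opens ORAI channels when the store empties, was at 7.54, 7.87 and 7.70 in control and 7.13, 7.37 and 7.16 in fibrinogen arrays. Each fibrinogen array lay below each control array, and the fall was 1.40-fold, from 7.70 ± 0.17 to 7.22 ± 0.13 (SD, n = 3; log2 fold change -0.48, SE 0.11, 95% interval -0.75 to -0.22, adjusted p = 0.0475). In bulk RNA of a culture, fewer cells of a type and less RNA per cell cannot be told apart. With 1 array omitted Stim1 passed only when that array was control 1 (adjusted p = 0.0473, and otherwise 0.0719 to 0.159), and it did not pass with the unmoderated model (adjusted p = 0.143).

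Stim2, the second sensor, which responds to smaller losses of stored calcium, was at 8.96, 9.0 and 8.95 in control and 8.75, 8.73 and 8.82 in fibrinogen arrays. These groups did not overlap either, and the log2 fold change of -0.20 (95% interval -0.37 to -0.04) did not pass (adjusted p = 0.149). Orai1, the pore-forming channel, was at 8.09, 8.01 and 8.02 in control and 8.42, 8.31 and 8.30 in fibrinogen arrays. It was higher in every fibrinogen array, by 0.30 on the log2 scale (95% interval 0.13 to 0.48), and missed the threshold narrowly (adjusted p = 0.0568). It passed without the dimmest 25% of genes (adjusted p = 0.0283), with the intensity trend (adjusted p = 0.0123) and with array quality weights (adjusted p = 0.0411). The sister channels Orai2 and Orai3 overlapped between groups, with log2 fold changes of 0.05 and 0.01 (95% intervals -0.14 to 0.24 and -0.18 to 0.19).

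**Figure D3:**
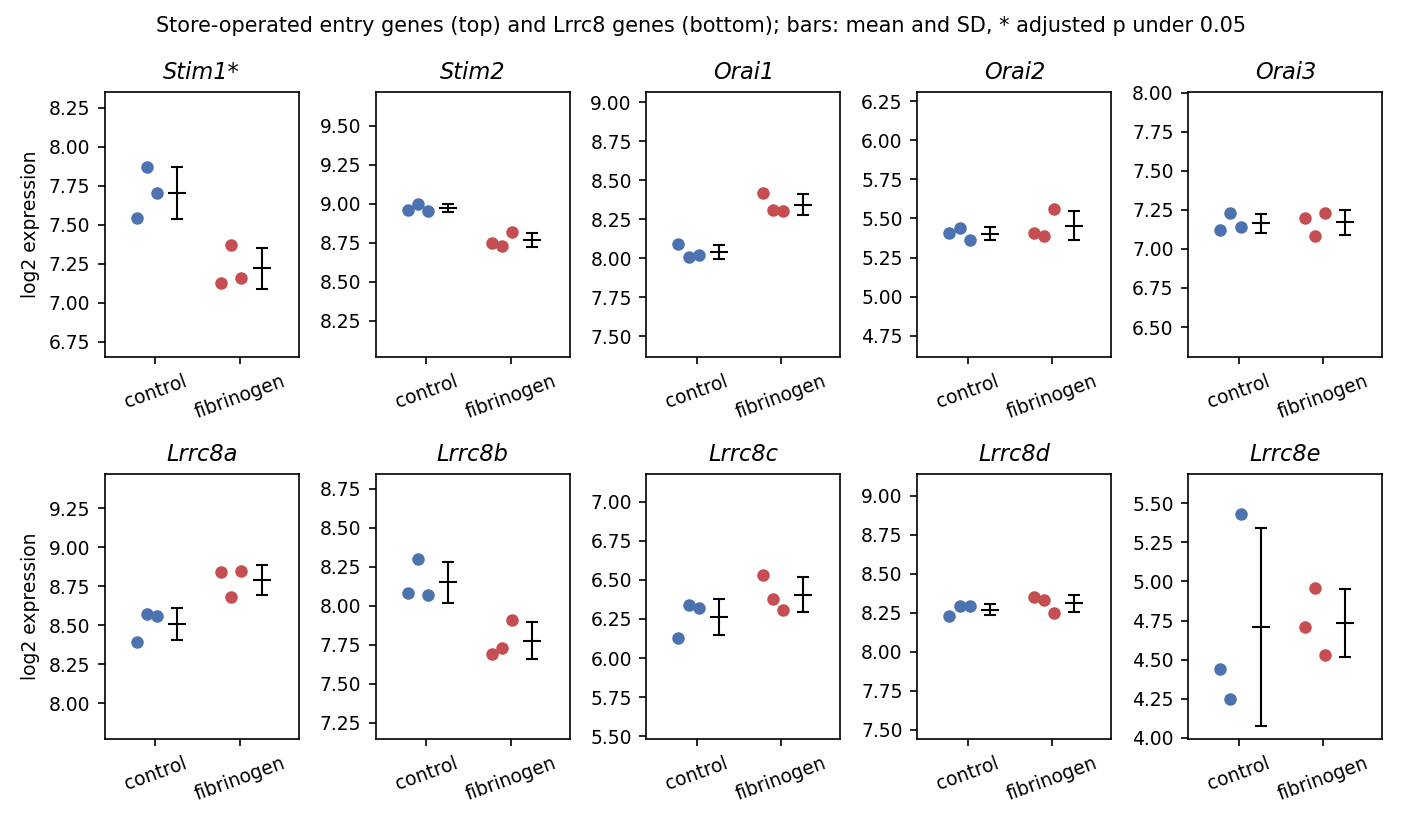
Log2 expression (y axis, the same span in every panel) of the Stim and Orai genes (top) and the Lrrc8 genes (bottom) in 3 control (blue) and 3 fibrinogen (red) arrays, with mean and SD beside the points. Stim1, Stim2 and Lrrc8b lie lower and Orai1 and Lrrc8a higher in every fibrinogen array, and only Stim1 (asterisk) passed the test.

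The channels that release stored calcium did not pass. Itpr2, the main IP3 receptor of astrocytes, was at 9.41, 9.53 and 9.39 in control and 9.27, 9.22 and 9.20 in fibrinogen arrays, without overlap (log2 fold change -0.21, 95% interval -0.39 to -0.04, adjusted p = 0.157). It was the only one of the 6 with a signal above the array median. Itpr1 and Itpr3 were at -0.11 and 0.06 (95% intervals -0.35 to 0.12 and -0.15 to 0.27). The ryanodine receptor genes were dim, with Ryr3 at 0.15, Ryr2 at -0.15 and Ryr1 at 0.10, and all 6 intervals lay within a 1.5-fold change.

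TRP channels are a broad family of cation channels opened by lipids, heat, stretch or calcium, and none of the 17 genes with such a symbol passed. They had 7 positive and 10 negative changes (6 and 11 with each array centred) and ranged from -0.33 to 0.29 with a median of -0.05, and 14 of the 17 lay below the array median. Trpm7, a channel joined to a kinase that carries magnesium and calcium, was at 7.17, 7.27 and 7.18 in control and 7.18, 7.22 and 7.08 in fibrinogen arrays, with overlap (log2 fold change -0.05, 95% interval -0.23 to 0.13). Trpc1, at -0.11 (95% interval -0.37 to 0.15), is a channel linked to store depletion. Trpc4ap, at 0.07, meets the symbol rule but encodes a partner protein and no channel. The smallest p-values were those of dim genes, Trpm4 at 0.29 (adjusted p = 0.175), Trpm3 at 0.26 (adjusted p = 0.222) and Trpv2 at 0.23 (adjusted p = 0.292), each higher in every fibrinogen array. The stretch-activated channel Piezo1 was also dim, at 4.55, 4.51 and 4.57 in control and 4.82, 4.68 and 4.57 in fibrinogen arrays (log2 fold change 0.15, 95% interval -0.06 to 0.35).

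The largest rise, that of Clic1, and the other fall, that of Ano4, came from the Clic and Ano families. No ClC or Lrrc8 gene passed. Whether the Clic1 or Ano4 protein carries chloride in these cells was not tested. Clic1 encodes a chloride intracellular channel protein, a largely soluble protein that can insert into membranes, and its part in chloride currents is debated. Its log2 expression was 8.19, 7.61 and 7.74 in control and 8.62, 8.52 and 8.90 in fibrinogen arrays. Control array 1 was the highest of its group and still lay below every fibrinogen array. The rise was 1.78-fold, from 7.85 ± 0.30 to 8.68 ± 0.20 (SD, n = 3; log2 fold change 0.83, SE 0.17, 95% interval 0.44 to 1.23, adjusted p = 0.0315). Omitting 1 array kept the call of Clic1 only for control 1 (adjusted p = 0.0165, and otherwise 0.0689 to 0.105), and the unmoderated model did not call it (adjusted p = 0.143).

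No other Clic gene passed. Clic4 was at 8.60, 8.70 and 8.62 in control and 8.61, 8.74 and 8.86 in fibrinogen arrays, a log2 fold change of 0.10 (95% interval -0.11 to 0.30). Clic2 and Clic3 were at -0.28 and -0.27 (adjusted p = 0.112 and 0.268) from signals below the array median, with no overlap for Clic2. Clic5 and Clic6, also dim, were at -0.11 and -0.06. Whether Clic1 differs from Clic4 in its change was not tested.

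Anoctamins are membrane proteins that act as calcium-activated chloride channels or move lipids between the leaflets of the membrane. Ano4 was at 6.67, 6.99 and 6.88 in control and 6.36, 6.41 and 6.42 in fibrinogen arrays, so every fibrinogen array lay below every control array. It fell 1.37-fold, from 6.85 ± 0.16 to 6.40 ± 0.03 (SD, n = 3; log2 fold change -0.45, SE 0.10, 95% interval -0.68 to -0.22, adjusted p = 0.0388). Ano4 likewise passed with 1 array omitted only for control 1 (adjusted p = 0.0219, and otherwise 0.0882 to 0.132), and not with the unmoderated model (adjusted p = 0.108). Ano1, a calcium-activated chloride channel, and Ano6, a lipid scramblase, were at 0.16 and 0.09 (95% intervals -0.09 to 0.41 and -0.09 to 0.27), and Ano7 was at 0.05.

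**Figure D4:**
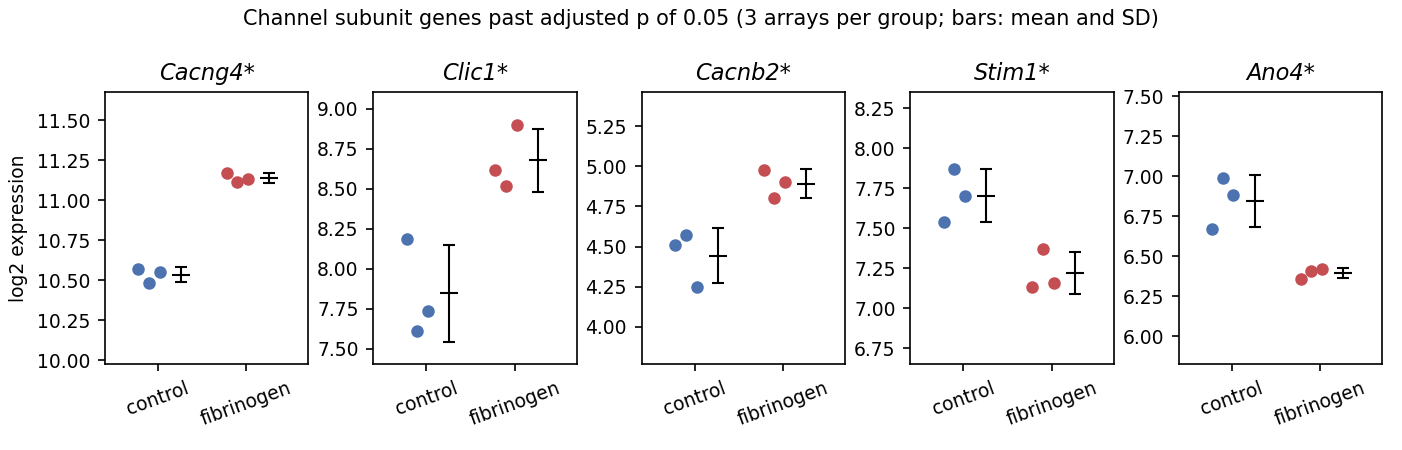
Log2 expression (y axis, the same span in every panel) of the 5 genes past the adjusted p of 0.05 in 3 control (blue) and 3 fibrinogen (red) arrays, with mean and SD beside the points. The groups do not overlap for any of the 5, and Cacng4 has the smallest spread within groups.

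The ClC genes, which encode chloride channels of the surface and chloride-proton exchangers of endosomes and lysosomes, did not pass. The intracellular exchangers Clcn3 and Clcn6 had signals well above the array median, and both were lower in every fibrinogen array. Clcn6 was at 9.23, 9.44 and 9.18 in control and 8.94, 8.80 and 8.98 in fibrinogen arrays (log2 fold change -0.38, 95% interval -0.61 to -0.15, adjusted p = 0.0683). Clcn3 was at 9.34, 9.29 and 9.27 in control and 9.08, 9.09 and 9.09 in fibrinogen arrays (log2 fold change -0.21, 95% interval -0.37 to -0.05, adjusted p = 0.123). With the intensity trend both passed (adjusted p = 0.00462 and 0.0189), Clcn6 also passed with each array centred (adjusted p = 0.0451) and without the dimmest 25% of genes (adjusted p = 0.0382), and Clcn3 with the unmoderated model (adjusted p = 0.0310). Clcn7, the lysosomal exchanger whose loss causes bone and brain disease, was at 0.18. Clcn2, a surface channel whose loss is known to cause vacuoles in white matter, was at 6.51, 6.67 and 5.85 in control and 6.73, 6.54 and 6.65 in fibrinogen arrays. Its control arrays were spread wider than the difference of 0.30 between the groups (95% interval -0.18 to 0.77). Clcn4, Clcn5 and the muscle channel Clcn1 were at -0.01, -0.10 and -0.03.

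Volume-regulated anion channels are hexamers that need LRRC8A together with at least one of the other LRRC8 subunits. Lrrc8a was at 8.39, 8.57 and 8.56 in control and 8.84, 8.68 and 8.85 in fibrinogen arrays (log2 fold change 0.28, 95% interval 0.07 to 0.49, adjusted p = 0.119). Lrrc8b was at 8.08, 8.30 and 8.07 in control and 7.69, 7.73 and 7.91 in fibrinogen arrays (log2 fold change -0.37, 95% interval -0.61 to -0.14, adjusted p = 0.0748). The groups overlapped for neither gene, with Lrrc8a higher and Lrrc8b lower with fibrinogen, and neither passed. Both passed with the intensity trend (adjusted p = 0.0236 and 0.0144), and Lrrc8b without the dimmest 25% of genes (adjusted p = 0.0431). Lrrc8c and Lrrc8d were at 0.14 and 0.04 (95% intervals -0.08 to 0.37 and -0.13 to 0.21), and the dim Lrrc8e was at 0.03 with a control array at 5.43 against 4.44 and 4.25.

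How many of these genes passed depended on the model and on which genes and arrays were kept. With an intensity trend in the variance prior 11 of the 94 passed, or 11.7%, among 12.3% of all genes. With the unmoderated model 2 passed, or 2.13%, among 3.74% of all genes. With the replicate number as a block 1 passed, Cacng4, or 1.06%, among 2.57% of all genes. The calls of Clic1, Cacnb2, Stim1 and Ano4 were thus lost there. Without the dimmest 25% of genes 64 remained and 10 of them passed (15.6%, among 12.9% of all genes kept). Leaving out 1 array left 4 of the 5 called genes without control 1, and 1, Cacng4, without any other.

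The sequence next to the transcription start was read for the called genes that the RefSeq promoter table of build GRCr8 holds, Stim1, Ano4 and Cacnb2. They are shown as the proximal promoters of genes that passed the test. Each is the 250 bases before the start of 1 annotated transcript, on the strand of the gene, with capitals marking matches to CANNTG, the E-box that basic helix-loop-helix factors bind, or to GGCGCC, a GC-rich element of BMP-responsive SMAD proteins. Both motifs read the same on either strand. Stim1 lies at chr1:166067964-166068213, plus strand, Ano4 at chr7:25540201-25540450, minus strand, and Cacnb2 at chr17:82472965-82473214, plus strand.
Stim1: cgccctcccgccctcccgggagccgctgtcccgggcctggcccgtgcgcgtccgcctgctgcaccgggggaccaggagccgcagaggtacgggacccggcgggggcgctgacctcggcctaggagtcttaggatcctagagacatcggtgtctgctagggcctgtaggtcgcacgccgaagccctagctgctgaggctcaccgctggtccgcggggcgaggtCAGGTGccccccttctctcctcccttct
Ano4: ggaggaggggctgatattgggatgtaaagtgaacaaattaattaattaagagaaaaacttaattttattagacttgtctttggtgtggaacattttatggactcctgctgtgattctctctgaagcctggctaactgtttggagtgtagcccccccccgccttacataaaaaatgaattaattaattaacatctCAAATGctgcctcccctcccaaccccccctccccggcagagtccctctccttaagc
Cacnb2: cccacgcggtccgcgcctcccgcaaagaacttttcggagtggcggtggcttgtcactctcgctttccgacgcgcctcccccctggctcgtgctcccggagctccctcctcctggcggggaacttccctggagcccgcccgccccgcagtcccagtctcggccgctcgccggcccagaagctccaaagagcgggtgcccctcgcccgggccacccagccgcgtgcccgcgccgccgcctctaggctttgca
Stim1 and Ano4 have 1 E-box each and Cacnb2 has 0, and none of the 3 holds GGCGCC in this window. Of the 76 genes of the 94 that matched the table, 56 hold CANNTG (73.7%, against 65.2% of the same window in all 27457 promoters of the table and 59.9% in those of the 11002 tested genes that matched it). GGCGCC is held by 9 of the 76 (11.8%), which is above the 9.24% of all promoters and below the 14.2% of the tested genes. The windows of Stim1 and Cacnb2 are 72% and 73.2% G or C, and that of Ano4 is 43.6%. A match is a description of the letters and not of binding.

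Genes around the channels were read from 4 lists, whose counts and medians stand against 7.16% called and a median of 0.00 over all genes. Of 18 measured genes for receptors, G proteins and phospholipases that produce IP3, the messenger that opens the Itpr channels, 3 rose and 1 fell (median log2 fold change 0.06). Grm5, a glutamate receptor coupled to IP3, rose 2.35-fold, from 5.76, 5.88 and 5.92 in control to 7.0, 7.14 and 7.11 in fibrinogen arrays (log2 fold change 1.23, SE 0.08, adjusted p = 0.00141). Plce1, a phospholipase C driven by Ras proteins, rose 2.27-fold (log2 fold change 1.18, adjusted p = 0.00341). Both kept their calls in all 13 alternatives and were higher in every fibrinogen array. Plcd1 rose by 0.37 on the log2 scale (adjusted p = 0.0460), a call lost when any array was omitted (adjusted p from 0.0662 to 0.150) and with each array centred. Gnaq, the G protein subunit that couples such receptors to phospholipase C, fell by 0.42 on the log2 scale (adjusted p = 0.0174). With 1 array omitted that call was kept only for control 1 (adjusted p = 0.0428, and otherwise up to 0.0745). With the replicate number as a block the calls of Gnaq and Plcd1 were lost, that of Plcd1 also with the unmoderated model.

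Of 23 measured channel anchors and modulators, 2 fell, none rose and 21 did not pass (median -0.06). Ank3 encodes ankyrin G, the scaffold that holds sodium channels at the axon initial segment and node. It fell 1.88-fold, from 7.95, 7.93 and 7.90 in control to 7.11, 7.04 and 6.90 in fibrinogen arrays (log2 fold change -0.91, SE 0.08, adjusted p = 0.00209), and passed in all 13 alternatives. Nalcn, the sodium leak channel, which the symbol rule does not reach, fell 1.45-fold, from 8.20, 8.17 and 8.01 to 7.55, 7.47 and 7.75 (adjusted p = 0.0246). Leaving out control 1 or 2, or fibrinogen 1 or 2, ended that call (adjusted p up to 0.0949). So did the unmoderated model and the replicate number as a block.

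Of 15 measured calcium pumps, exchangers and mitochondrial uptake genes, 1 rose, none fell and 14 did not pass (median 0.02). The riser was Slc8a1, the sodium-calcium exchanger of the plasma membrane, which was at 6.45, 6.51 and 6.33 in control and 7.13, 6.88 and 7.18 in fibrinogen arrays (1.55-fold, log2 fold change 0.63, SE 0.10, adjusted p = 0.0147). Leaving out control 3, or fibrinogen 1 or 3, ended the call (adjusted p up to 0.0685). So did the unmoderated model and the replicate number as a block. Of 23 measured calcium sensors and effectors, 1 rose, none fell and 22 did not pass (median -0.03). Camk2b, a calmodulin-dependent kinase, rose 1.33-fold (log2 fold change 0.41, adjusted p = 0.0281). That call was lost when any array was omitted (adjusted p from 0.0594 to 0.104), with the unmoderated model and with the replicate number as a block.

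Markers of the cell types such a culture could hold were read from the same fit, in which 11.2% of all genes at or above the array median and 1.99% of those below it were called in either direction. All 7 measured OPC markers lay above the array median, and 4 of them rose (mean log2 expression of the list 9.89 to 10.01 in control and 10.27 to 10.32 in fibrinogen arrays). Of 8 markers of myelinating oligodendrocytes 4 fell (8.41 to 8.44 and 8.08 to 8.13), and of 8 astrocyte markers 4 rose (8.47 to 8.53 and 8.83 to 8.86). Of 14 neuron markers, the cells in which many of these channels are best known, 2 rose and 1 fell (6.69 to 6.82 and 6.66 to 6.70). Of 10 microglia markers 9 lay below the array median and 2 fell (4.57 to 4.82 and 4.36 to 4.46). All 4 endothelial markers lay below it and none passed, and of 6 pericyte and fibroblast markers 1 rose, Cspg4, which is also an OPC marker. The part of these shifts in the values of Cacng4, Clic1, Cacnb2, Stim1 and Ano4 was not tested.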

How the data were processed

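Each of the 6 arrays gave 1 column of log2 expression values, deposited by the authors with 1 row per probe set and rounded to 2 decimals. The submitters' processing notes name RMA and limma; settings, versions and genome build are not given in the sources used here. Array medians lay between 5.78 and 5.84, and the number of arrays limits the precision. Of 26312 probe sets 23631 had values. Names came from the platform annotation. Each gene was read from its single-symbol probe set with the highest mean, which gave 13355 genes. All 94 symbols matched a current rat gene record, and only Scn3a had more than 1 probe set. The 3 valued probe sets that list several genes including a channel gene entered no gene-level test, and Piezo2 and Trpv4 were not analysed here.

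Groups were taken from the titles. The fibrinogen arrays were tested against the controls with lmFit and eBayes of limma 3.58.1 in R 4.3.3, two-sided and without covariates or a filter, with Benjamini-Hochberg adjustment over all 13355 genes and a threshold of 0.05. The fit was tested on simulated data. Errors are SE of the fit or SD of 3 arrays. The genes and lists were chosen with earlier results of these data known. Values were given for every gene past the threshold, up to 3 others per family by p-value, and 30 genes set by name, of which 28 were measured; other genes named were chosen after their values were seen. The alternatives were centring, a filter on dim genes, the mean of probe sets, an unmoderated model, an intensity trend, array weights, a replicate block and leaving out each array. They were also run on the called genes of the 4 pathway lists, a step chosen after seeing the data.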

Additional observations from a re-analysis of the deposited data

Results flagged for a closer look

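The second probe set of Scn3a (10845798), which lies outside the gene-level test because its mean is lower than that of probe set 10845809, was higher with fibrinogen. Its log2 expression was 5.71, 5.58 and 5.49 in control and 6.11, 5.99 and 6.13 in fibrinogen arrays, a log2 fold change of 0.48 (SE 0.09, 95% interval 0.27 to 0.70). In a limma fit over all 23631 valued probe sets its adjusted p was 0.0347, and that of probe set 10845809 in the same fit was 0.121 (log2 fold change 0.30). Both probe sets had every fibrinogen array above every control array.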

How the results depend on the processing

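Among the 94 channel genes the counts called higher and lower (3 and 2 as reported) were 6 and 4 without the dimmest 25% of genes, 1 and 1 with the unmoderated model, 4 and 7 with the intensity trend, 5 and 2 with array quality weights, and 1 and 0 with the replicate block. Leaving out 1 array gave 1 to 2 higher and 0 to 2 lower. Over all genes (555 higher and 401 lower) the counts were 268 and 232 unmoderated, 947 and 692 with the trend, 199 and 144 with the block, and 208 to 379 and 150 to 239 with 1 array left out. The deviations of same-numbered arrays correlated at 0.02, -0.14 and -0.07 for numbers 1 to 3, and those of unlike-numbered arrays at -0.10 to 0.17. Values this few cannot settle whether the replicate numbers pair the arrays. Among the genes named by rule, signs turned for 4 that lay near 0: Cacnb4 (-0.037 centred, -0.051 with array weights, -0.22 to 0.20 with 1 array left out), Orai3 (-0.04 centred, and -0.023 to 0.052), Ano7 (-0.025 to 0.14) and Cacna1c (-0.063 to 0.23). The cause of the lost and gained calls was not tested, beyond the fewer genes or arrays that a filter or an omission leaves.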

Other observations

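Several of these genes lie side by side in the rat genome (order of protein-coding genes in the RefSeq table of GRCr8) as 11 adjacent pairs. Cacng4 sits between Cacng1 and Cacng5, whose log2 fold changes were 0.00 and 0.12 against 0.60 for Cacng4. Lrrc8d, Lrrc8c and Lrrc8b are consecutive, with log2 fold changes of 0.04, 0.14 and -0.37. Scn2b, at 0.36, is next to Scn4b, at -0.05, while the adjacent pore genes Scn3a and Scn2a were at 0.30 and 0.21. Cacng6, Cacng8 and Cacng7 are consecutive, at -0.12, 0.08 and 0.12. The epithelial sodium channel genes Scnn1g and Scnn1b were at -0.19 and -0.03, Trpv1 and Trpv3 at -0.02 and -0.17, and Trpv6 and Trpv5 at -0.30 and -0.08. The values of neighbours were thus close in some pairs and apart in others, and their differences were not tested.

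The gap between 2 probe sets within an array was read for 6 pairs of related genes; its size has no meaning as a ratio of transcripts. Orai1 minus Stim1 was 0.55, 0.14 and 0.32 in control and 1.29, 0.94 and 1.14 in fibrinogen arrays on the log2 scale. Lrrc8a minus Lrrc8b was 0.31, 0.27 and 0.49 in control and 1.15, 0.95 and 0.94 in fibrinogen arrays. Cacng4 minus Cacng7 was 0.76, 0.68 and 0.72 in control and 1.18, 1.17 and 1.27 in fibrinogen arrays. Clic1 minus Clic4 was -0.41, -1.09 and -0.88 in control and 0.01, -0.22 and 0.04 in fibrinogen arrays. In these 4 pairs the groups did not overlap. For Orai1 minus Stim1 and Lrrc8a minus Lrrc8b that had to follow from the single genes. In both, the first gene was higher and the second lower in every fibrinogen array. No share over other gene pairs was worked out, so the count has no background. The groups overlapped for Stim1 minus Stim2, which ran from -1.42 to -1.13 in control and from -1.66 to -1.36 in fibrinogen arrays. Clcn3 minus Clcn6, at 0.11, -0.15 and 0.09 in control and 0.14, 0.29 and 0.11 in fibrinogen arrays, shared its highest control value with its lowest fibrinogen value. The pairs were chosen after their values were seen, so no test is given.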
